A study of Mus musculus with 63 samples.

Results

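The mitochondrial carrier family was taken as every row of the gene count table whose symbol begins with Slc25a and a number, which gave 47 genes of 23429. Their mRNAs were followed in 63 RNA-seq libraries of polyadenylated RNA from mouse hearts on the FVB/N background, on the first day after birth (P1), at 21 days (P21) and at 5 weeks. Mfn2AA hearts overexpressed human mitofusin 2 with the substitutions T111A and S442A, and Mfn2wt hearts overexpressed the unsubstituted human protein. The controls were hearts labelled tet-off control (tetoff here) and nontransgenic hearts (ntg). At P1 there were 3 Mfn2AA, 4 Mfn2wt, 5 tetoff and 6 ntg libraries, at P21 6, 6, 5 and 6, and at 5 weeks 4, 4, 3 and 4. A further 7 ntg libraries, 3 of P21 and 4 of 5 weeks, were made in the library batch of the P1 hearts, 6 of them from hearts that also have a library in the batch of their own age. The promoter and cell type that drive the transgenes, and whether Mfn2wt hearts also carry the tet-off driver, are not given in the sources used here. The labels name whole heart at P1 and left ventricle later, while the protocol names ventricular apexes throughout, so age and the piece of tissue cannot be told apart.

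Members of the family sit almost all in the inner mitochondrial membrane, which small charged molecules cannot cross unaided. Each carrier exchanges or imports a small group of solutes, such as ADP for ATP, phosphate, malate, aspartate, acylcarnitine, coenzyme A, glutathione or iron. In heart muscle the ADP/ATP exchangers and the phosphate carrier feed and drain ATP synthase, the carnitine carrier admits fatty acids for oxidation, and the carriers of the malate-aspartate shuttle move reducing equivalents from the cytosol. The heart turns to fatty acids for fuel in the weeks after birth, and the dominant ADP/ATP exchanger of heart muscle is Slc25a4, while Slc25a5 is the form of many other and dividing cells. Mitofusin 2 is an outer membrane protein that joins mitochondria and can serve as a receptor for the ubiquitin ligase Parkin.

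Total counts ran from 4557894 to 24339146 per library. The human transgene, listed in the FPKM table (fragments scaled by transcript length and library size), checked the labels: at P1 it was at least 264 FPKM in every transgenic library and at most 155 in the controls, at P21 at least 1405 and at most 362, and at 5 weeks at least 336 and at most 190. In 5-week Mfn2AA hearts it was 540 ± 242 FPKM (SD, n = 4), against 1469 ± 215 in Mfn2wt hearts (n = 4) and 5319 ± 2059 in P21 Mfn2AA hearts (n = 6). The ribosomal transcript Rn45s took 1.98% to 34.4% of counts, the top value in 1 Mfn2wt library of 5 weeks. All 6 ventricular markers were read in every group, and the summed atrial markers ran from 55.3 to 9993 scaled CPM at P21.

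Of the 47 members, 38 passed the filter on low counts in every fit, 40 at P1, 38 at P21, 38 at 5 weeks and 39 across ages. Slc25a2, Slc25a21, Slc25a31, Slc25a41, Slc25a43, Slc25a48 and Slc25a54 passed in none. They include the testis ADP/ATP exchanger (Slc25a31) and an ornithine carrier (Slc25a2), and their highest values in any library were between 0.0733 FPKM (Slc25a54) and 1.18 FPKM (Slc25a43). Slc25a18, a glutamate carrier, was tested at P1 alone, and Slc25a53 at P1 and across ages. Exons of Slc25a25, Slc25a26 and Slc25a35 overlap exons of Naif1, Lrig1 and Rangrf on the other strand in the deposited mm10 annotation, and the libraries carry no strand, so reads of the shared stretches cannot be told apart. Slc25a5 has processed copies in the mouse genome, among them Slc25a5-ps in RefSeq, and how reads matching several copies were handled is not given in the sources used here.

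Per length of transcript, Slc25a4 stood far above all other carriers at every age. In ntg hearts it reached 4690 ± 195 (SD, n = 6) FPKM at P1, 6029 ± 174 (SD, n = 6) at P21 and 5012 ± 566 (SD, n = 4) at 5 weeks. That was 72.2% ± 1.15 (SD, n = 6), 78.8% ± 0.641 (n = 6) and 76.4% ± 1.22 (n = 4) of the family's summed FPKM. Each age here and in the next paragraph is in its own library batch, so age and batch cannot be told apart in these levels. Within the P1 batch, Slc25a4 changed by -0.07 on the log2 scale from P21 to 5 weeks (edgeR, adjusted p = 0.680). The gene lies at chr8:46207341-46211009 in mm10, on the minus strand.

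Slc25a5 came next at P1, at 626 ± 84.7 (SD, n = 6) FPKM, followed by the phosphate carrier Slc25a3 at 419 ± 59.9 (SD, n = 6). At P21 their order was the reverse, Slc25a3 at 375 ± 44.5 (SD, n = 6) and Slc25a5 at 326 ± 18 (SD, n = 6), with ranges that overlap. The oxoglutarate carrier Slc25a11 followed at 258 ± 18.2 (SD, n = 6) FPKM, then Slc25a34, whose substrate is little known, at 119 ± 16.3 (SD, n = 6). The glutathione carrier Slc25a39 (98.3 ± 4.76, SD, n = 6), the aspartate-glutamate carrier Slc25a12 (82.6 ± 9.3, SD, n = 6) and the carnitine-acylcarnitine carrier Slc25a20 (69.4 ± 3.66, SD, n = 6) came after them. The second aspartate-glutamate carrier, Slc25a13, stood at 35.9 ± 4.89 (SD, n = 6) FPKM, below Slc25a12 at all 3 ages, and Slc25a46, an outer membrane member tied to the shape of mitochondria, at 3.71 ± 0.38 (SD, n = 6).

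**Figure D1:**
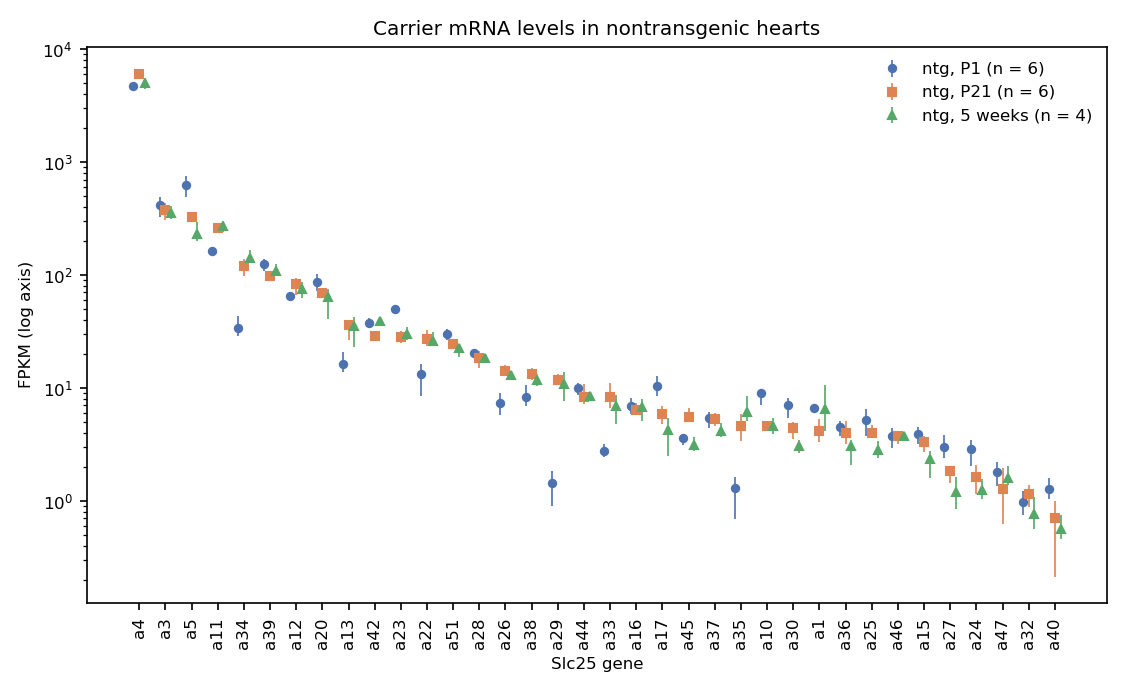
FPKM on a log axis for carriers with a mean of at least 1 FPKM at any of the 3 ages in nontransgenic hearts. Points are means and bars run from the lowest to the highest library. Each age is in its own library batch. The lowest library of Slc25a4 is at 4442 FPKM, and the highest of any other carrier, Slc25a5 at P1, at 745.

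The 250 bases upstream of the RefSeq start (GRCm38.p6, the assembly of mm10) are shown for 4 carriers. Slc25a4, Slc25a3 and Slc25a20 were lower in 5-week Mfn2AA hearts, and Slc25a5 is the ADP/ATP exchanger with another pattern. They were chosen with these values known, so a motif they share cannot speak for the family. Capitals mark the letters of 6 motifs searched on both strands: CGCNTGCGC for the factor NRF1, CCGGAAG for the ETS family that includes GABP, TNAAGGTCA for the ERR receptors, the CCAAT box by its own letters, GGGCGG for the GC box, and the TATAAA form of the TATA box. No motif found here overlaps another.
Slc25a4: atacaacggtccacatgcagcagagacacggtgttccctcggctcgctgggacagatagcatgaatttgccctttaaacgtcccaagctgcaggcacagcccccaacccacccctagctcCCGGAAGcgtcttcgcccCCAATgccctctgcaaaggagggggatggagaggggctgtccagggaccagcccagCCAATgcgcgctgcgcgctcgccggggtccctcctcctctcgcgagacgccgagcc
Slc25a3: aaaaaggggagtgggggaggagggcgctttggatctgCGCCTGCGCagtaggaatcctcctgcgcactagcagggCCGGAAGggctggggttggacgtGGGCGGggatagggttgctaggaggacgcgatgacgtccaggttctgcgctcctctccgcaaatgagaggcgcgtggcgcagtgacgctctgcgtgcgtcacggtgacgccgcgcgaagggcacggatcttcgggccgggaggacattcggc
Slc25a20: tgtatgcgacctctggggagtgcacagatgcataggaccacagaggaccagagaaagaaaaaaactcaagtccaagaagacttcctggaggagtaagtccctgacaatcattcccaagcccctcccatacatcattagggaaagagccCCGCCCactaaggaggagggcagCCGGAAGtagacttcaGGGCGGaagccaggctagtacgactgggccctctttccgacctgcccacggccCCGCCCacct
Slc25a5: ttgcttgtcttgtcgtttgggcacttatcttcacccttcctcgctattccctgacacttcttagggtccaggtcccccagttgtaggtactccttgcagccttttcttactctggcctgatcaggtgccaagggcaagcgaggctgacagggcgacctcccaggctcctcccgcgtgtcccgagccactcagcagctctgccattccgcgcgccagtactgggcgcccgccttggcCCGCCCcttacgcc

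These stretches are chr8:46211063-46211312, minus strand (Slc25a4), chr10:91123968-91124217, minus strand (Slc25a3), chr9:108661886-108662135, plus strand (Slc25a20) and chrX:36795347-36795596, plus strand (Slc25a5). The Slc25a4 stretch holds 2 CCAAT motifs and 1 ETS motif, that of Slc25a3 an NRF1, an ETS and a GC box motif, that of Slc25a20 an ETS and 3 GC box motifs, and that of Slc25a5 a GC box alone. Promoters of 36 members were in the table, 46 in all because some genes have several starts. The NRF1 motif stood in 2 of the 46 and in 5.16% of all 32851 promoters. For ETS it was 6 of the 46 and 6.91% of all. CCAAT stood in 21 of the 46 (18 of the 36 genes) and in 33.8% of all. The GC box stood in 32 of the 46 (25 of the 36 genes) and in 32.7% of all. TATAAA stood in 2 of the 46 and in 12.4% of all. The ERR motif stood in 0 of the 46 and 1.14% of all. Of the members with the ETS motif, Slc25a3, Slc25a4, Slc25a20 and Slc25a38 fell in both comparisons at 5 weeks. Slc25a17 rose in both, and Slc25a54 passed no filter. Slc25a11, Slc25a22, Slc25a34 and Slc25a42 also fell in both, and their promoters held no ETS motif. These counts describe letters in the window and say nothing of binding.

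At P1 no member was called between Mfn2AA hearts and Mfn2wt or tetoff hearts by edgeR, while 0.125% of 13653 genes tested were called against Mfn2wt and 0.00732% against tetoff. DESeq2 also called 0 members in both, and 5 and 2 members had an unadjusted p under 0.05 by edgeR. Against ntg hearts 1 of 40 members was lower in Mfn2AA, Slc25a27 (-0.68 ± 0.16, SE, adjusted p = 0.0363), where 1.4% of genes were called. Slc25a27, a relative of the uncoupling proteins, was also lower in Mfn2wt and in tetoff hearts than in ntg hearts, where 0.146% (Mfn2wt) and 1.3% (tetoff) of genes were called. In scaled CPM the 6 ntg libraries held Slc25a27 at values from 6.21 to 9.88 (median 7.51), the 4 Mfn2wt libraries 3.69, 4.46, 5.11 and 5.34, the 5 tetoff libraries 4.03, 4.28, 4.69, 4.88 and 5.41 and the 3 Mfn2AA libraries 4.67, 4.86 and 4.89. Every library of the other 3 genotypes lay below the lowest ntg library. The log2 differences from ntg were -0.73 ± 0.15 (SE, adjusted p = 0.0493) in Mfn2wt and -0.74 ± 0.14 (SE, adjusted p = 0.0109) in tetoff hearts. The Mfn2wt call was lost on log2(FPKM + 1) (-0.50, adjusted p = 0.0724), without Rn45s (adjusted p = 0.0503) and without any 1 of the hearts P1_Mfn2wt_10546-1, P1_Mfn2wt_10546-3 and P1_Mfn2wt_10546-9 (adjusted p 0.0703 to 0.178) or the hearts P1_ntg_10582-1 to P1_ntg_10582-5 (0.0641 to 0.126). The tetoff call held in all 16 alternatives.

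At P21 few members were called between genotypes. Against Mfn2wt hearts 4 of 38 members were called, 3 higher and 1 lower in Mfn2AA, where 13.7% of 13585 genes were called, 7.52% higher and 6.19% lower. On log2 of FPKM the calls over all genes tested there were 1262 higher and 421 lower. No member was called against tetoff (0.574% of genes), nor between tetoff and ntg (1.63%), by edgeR or DESeq2, with 3 and 1 members under an unadjusted p of 0.05. The sum of atrial markers varied from library to library, as given above. With it as a term 6 members were called against Mfn2wt, 4 higher and 2 lower. Over all genes 2144 were called in that fit, 1131 higher and 1013 lower. Against Mfn2wt 2 of 6 atrial markers, 7 of 8 macrophage markers and 4 of 5 adipocyte markers tested were higher in Mfn2AA hearts. Lower were 2 of 6 ventricular cardiomyocyte markers, 2 of 5 of proliferating cells and 1 of 5 of endothelium, and none of the fibroblast, smooth muscle and erythroid lists was called. Their part was not tested. Against ntg hearts 2 members were higher in Mfn2AA, Slc25a33 (0.46 ± 0.13, SE, adjusted p = 0.0272) and Slc25a38 (0.24 ± 0.07, SE, adjusted p = 0.0409), where 6.73% of genes were called.

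The member lower in Mfn2AA was Slc25a5. It ran from 331 to 437 (median 379) scaled CPM in 6 Mfn2AA libraries, from 443 to 521 (median 454) in 6 Mfn2wt, and from 333 to 395 (median 365) in 6 ntg libraries. The 5 tetoff libraries held 328, 349, 355, 386 and 404. The Mfn2wt libraries were all above those of the other 3 genotypes, which overlap each other. The log2 difference of Mfn2AA from Mfn2wt was -0.26 ± 0.08 (SE, adjusted p = 0.0244), and that of Mfn2wt from ntg 0.36 ± 0.08 (SE, adjusted p = 0.0225), the only member called among 0.604% of genes. The first call was lost without the heart P21_Mfn2AA_10534-1 (adjusted p = 0.0552) or P21_Mfn2AA_10534-4 (0.0748) or the heart P21_Mfn2wt_10547-4 (0.0518). The second was lost without that Mfn2wt heart (0.0675) or any 1 of the hearts P21_ntg_10547-1, P21_ntg_10547-2, P21_ntg_10547-5 and P21_ntg_10547-7 (0.0553 to 0.080).

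The higher members at P21 were the S-adenosylmethionine carrier Slc25a26, 0.28 ± 0.07 (SE, adjusted p = 0.0084), the glycine carrier Slc25a38, 0.28 ± 0.07 (SE, adjusted p = 0.00863), and the ATP-Mg/phosphate carrier Slc25a23, 0.22 ± 0.07 (SE, adjusted p = 0.0267). The 6 Mfn2AA libraries ran from 25.9 to 31.2 (median 27.9) for Slc25a26 and the 6 Mfn2wt libraries from 21.3 to 24.2 (median 23.4), without overlap. Slc25a38 ran from 20.1 to 25.7 (median 22.6) in Mfn2AA and from 17.5 to 20.5 (median 18.7) in Mfn2wt hearts, which overlap, and Slc25a23 from 95.1 to 102 (median 101) and from 74 to 97.3 (median 85.1), which overlap as well. The call of Slc25a23 was lost without the heart P21_Mfn2AA_10534-4 (adjusted p = 0.0576) or the heart P21_Mfn2wt_10583-3 (0.0694) or P21_Mfn2wt_10583-5 (0.0584). Slc25a4 was -0.06 ± 0.09 (SE, adjusted p = 0.733) against Mfn2wt and -0.03 ± 0.10 (SE, adjusted p = 0.958) against tetoff, and Slc25a20 -0.22 ± 0.11 (SE, adjusted p = 0.204) and -0.01 ± 0.12 (SE, adjusted p = 0.995).

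By 5 weeks most of the carriers that differed were lower in Mfn2AA hearts, among them the main carriers of ADP and ATP, phosphate, oxoglutarate and acylcarnitine. Of 38 members tested, 20 fell and 5 rose against Mfn2wt hearts, and 15 fell and 4 rose against tetoff hearts. Of all 13661 genes tested, 38.5% were called against Mfn2wt (20.3% higher, 18.2% lower) and 35% against tetoff (18.9% higher, 16.1% lower). The median log2 difference of the members was -0.44 against Mfn2wt and -0.42 against tetoff, beside 0.03 and 0.01 over all genes tested. Both comparisons share the 4 Mfn2AA libraries. No member was called between Mfn2wt and ntg hearts, where 0.388% of genes were, or between tetoff and ntg hearts, where 0.117% were, by edgeR or DESeq2, and 3 members in each had an unadjusted p under 0.05.

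Several values moved with this result. Summed markers of ventricular cardiomyocytes ran from 40180 to 52980 scaled CPM in Mfn2AA hearts and from 76729 to 99540 in the other 3 genotypes, with 4 of 6 markers lower in both comparisons (medians of -0.95 and -1.0). Fibroblast markers ran from 10292 to 15755 in Mfn2AA against 1385 to 2489 elsewhere, with 5 of 6 higher. Macrophage markers ran from 674 to 2013 against 312 to 492, with 8 of 8 higher, and markers of proliferating cells from 25 to 95 against 2.77 to 15, with 5 of 5 higher. Summed atrial markers ran from 6272 to 12402 in Mfn2AA, 1599 to 3086 in Mfn2wt, 126 to 536 in tetoff and 152 to 773 in ntg hearts. Of the 6 atrial markers 1 was higher and 1 lower against Mfn2wt (median of -1.34), and 2 were higher against tetoff (median of 2.36). Nppa, also a gene of the stressed ventricle, was higher by 2.52 and 4.61 on the log2 scale, and Bmp10, a gene of the right atrium, was lower against Mfn2wt (-5.23 ± 1.05, SE, adjusted p = 0.00111) and not called against tetoff (1.90 ± 1.61, SE, adjusted p = 0.392). Of the other lists, 2 of 6 adipocyte markers were higher in each comparison, 1 and 2 of 4 of smooth muscle, 1 and 0 of 5 of endothelium, and 0 and 2 of 3 of erythroid cells, with Hba-a1, Hba-a2 and Hbb-b1 at 0 in all 4 genotypes. Their part in the carrier values was not tested, and in RNA of whole tissue fewer cardiomyocytes and less carrier mRNA per cardiomyocyte cannot be told apart.

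The scale also bears on the counts. The calls above are on counts scaled by the trimmed mean of M-values (TMM). On log2(FPKM + 1) the median over all genes moved up to 0.33 against Mfn2wt and 0.20 against tetoff. On that scale 4749 genes were called higher and 820 lower against Mfn2wt, and 3276 and 1021 against tetoff. There 8 members were higher and 12 lower against Mfn2wt, 6 and 11 against tetoff, and the members' medians were -0.07 and -0.16. With the 5 shallowest of the 5-week libraries left out, a choice made after seeing the data, 2 members were higher and 12 lower against Mfn2wt, among 2059 genes called, and 3 and 18 against tetoff, among 4279. Calls lost there against Mfn2wt included those of Slc25a1, Slc25a5, Slc25a17, Slc25a29, Slc25a38, Slc25a39, Slc25a44, Slc25a45, Slc25a46 and Slc25a51, and against tetoff that of Slc25a1. That fit keeps 1 Mfn2wt library, assumed to vary like the other groups, and 2 tetoff libraries.

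**Figure D2:**
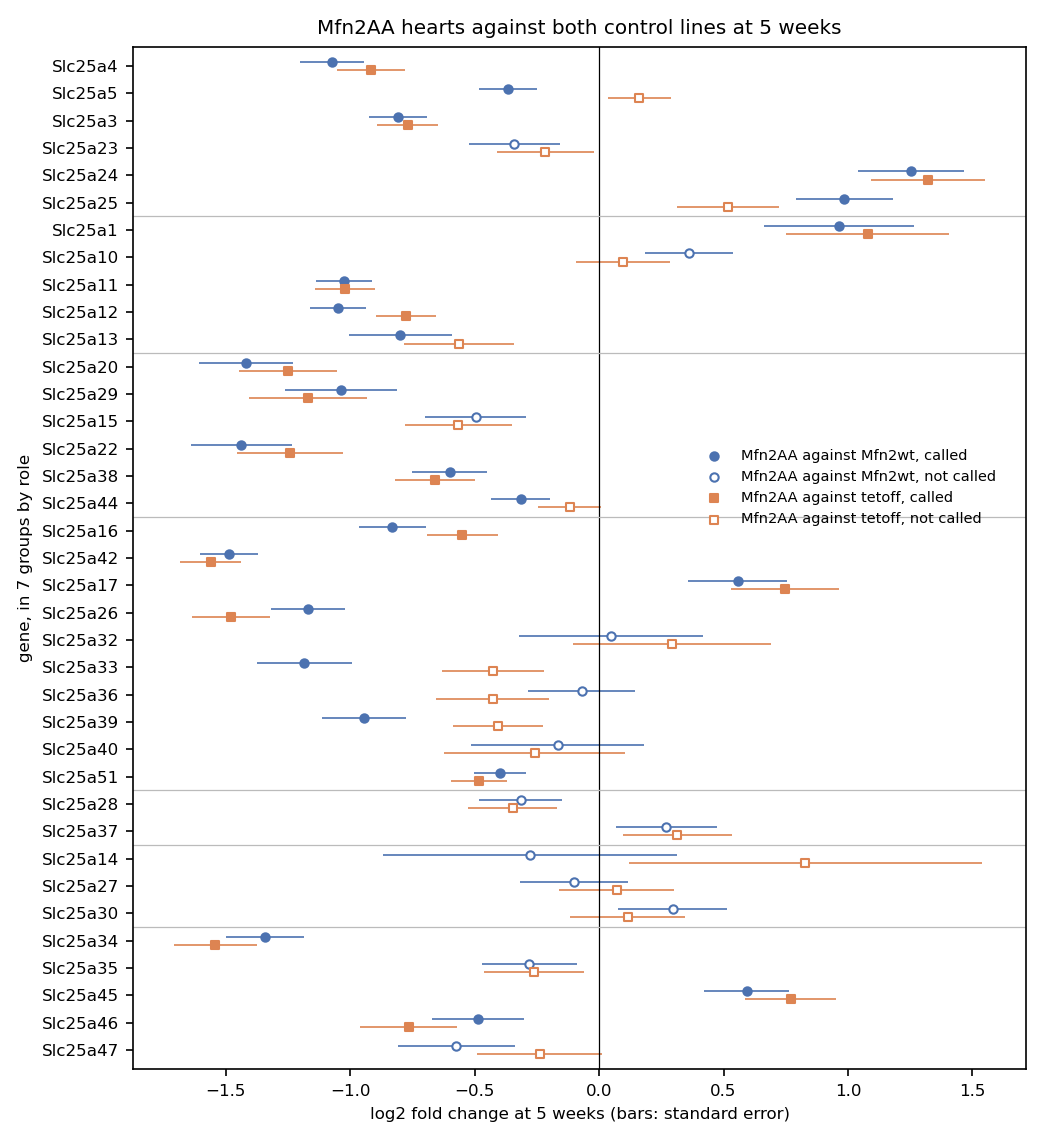
Log2 fold change at 5 weeks of tested carriers, Mfn2AA against Mfn2wt (circles) and against tetoff (squares), with standard error bars, and filled symbols for adjusted p under 0.05. Genes are in 7 groups by role (adenine nucleotides and phosphate; di- and tricarboxylates and the malate-aspartate shuttle; carnitine and amino acids; cofactors, nucleotides and glutathione; iron; relatives of uncoupling proteins; others), and most filled symbols lie left of 0.

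Among 6 tested carriers of adenine nucleotides and phosphate, 3 fell and 2 rose against Mfn2wt, and 2 fell and 1 rose against tetoff. The main ADP/ATP exchanger of heart was among those that fell. Slc25a4 stood at 1847, 1968, 2280 and 2352 scaled CPM in the 4 Mfn2AA libraries, with the 4 Mfn2wt libraries at 4372, 4374, 4395 and 4632, the 3 tetoff libraries at 3559, 4182 and 4208 and the 4 ntg libraries at 4123, 4628, 5193 and 5347. All Mfn2AA libraries were below every other library. The log2 difference was -1.07 ± 0.13 (SE, adjusted p = 1.83e-05) against Mfn2wt and -0.92 ± 0.14 (SE, adjusted p = 1.38e-04) against tetoff, and on log2(FPKM + 1) it was -0.67 and -0.67. Per length it was 2704 ± 381 (SD, n = 4) FPKM in Mfn2AA hearts, 4356 ± 956 (SD, n = 4) in Mfn2wt and 4305 ± 750.0 (SD, n = 3) in tetoff hearts. Rn45s took 34.4% of counts in 5wk_Mfn2wt_15926-4 and 17.6% in 5wk_Mfn2wt_15931-9, where the family summed to 4466 and 5537 FPKM. In 5wk_Mfn2wt_15930-8 (8.06%) and 5wk_Mfn2wt_15934-5 (6.56%) it summed to 7366 and 6059. The heart 5wk_tetoff_10289-3, at 5.52%, had 4806. The part of Rn45s in the FPKM values was not tested.

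Slc25a5, the exchanger of many other cell types, passed the test against Mfn2wt alone. Slc25a5 stood at 229, 253, 258 and 273 scaled CPM in the 4 Mfn2AA libraries, with the 4 Mfn2wt libraries at 310.4, 324, 326 and 345, the 3 tetoff libraries at 213, 229 and 237 and the 4 ntg libraries at 215, 238, 255 and 316. The Mfn2AA libraries were below the Mfn2wt libraries, and overlapped the ntg and tetoff libraries. The log2 difference was -0.37 ± 0.12 (SE, adjusted p = 0.0209) against Mfn2wt and 0.16 ± 0.13 (SE, adjusted p = 0.354) against tetoff. On log2(FPKM + 1) the first turned to 0.04 (adjusted p = 0.863), and its call was lost without the heart 5wk_Mfn2AA_10287-8 (0.0558), the heart 5wk_Mfn2wt_15931-9 (0.0656) or the 5 libraries of lowest depth (0.357). The ratio of Slc25a4 to Slc25a5 in FPKM was 9.56 ± 0.804 in Mfn2AA hearts (SD, n = 4; range 8.37 to 10.1), 15.6 ± 1.06 in Mfn2wt (n = 4; 14.6 to 17.1), 20.1 ± 0.898 in tetoff (n = 3; 19.2 to 20.9) and 21.8 ± 2.17 in ntg hearts (n = 4; 18.8 to 24.0). At P1 the group means of that ratio were 6.88 to 7.70, and at P21 13.9 to 18.5. Each age is in its own library batch there, so age and batch cannot be told apart. The 5-week ntg mean was 21.8 in its own batch and 17.1 ± 1.08 (SD, n = 4) in the P1 batch. The heart 5wk_ntg_15927-6 had 24.0 and 18.6, 5wk_ntg_15928-7 18.8 and 16.4, and 5wk_ntg_15935-10 22.3 and 16.2. The P1 ntg hearts, also in the P1 batch, had 7.58 ± 0.793 (SD, n = 6).

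The phosphate carrier Slc25a3, which supplies ATP synthase, fell as well. Slc25a3 stood at 246, 249, 267 and 314 scaled CPM in the 4 Mfn2AA libraries, with the 4 Mfn2wt libraries at 449, 455, 489 and 490.4, the 3 tetoff libraries at 439, 464 and 473 and the 4 ntg libraries at 414, 489, 527 and 557. The Mfn2AA libraries did not overlap any other group. The log2 difference was -0.81 ± 0.12 (SE, adjusted p = 7.17e-05) against Mfn2wt and -0.77 ± 0.12 (SE, adjusted p = 2.21e-04) against tetoff, and the first call was lost on log2(FPKM + 1) (-0.40, adjusted p = 0.0585). The calcium-regulated ATP-Mg/phosphate carriers, which adjust the adenine nucleotide content of mitochondria, went the other way or were not called. Slc25a24 held 6.9, 7.59, 7.75 and 8.33 scaled CPM in Mfn2AA, 1.72, 3.31, 3.6 and 3.93 in Mfn2wt, 2.82, 2.95 and 3.38 in tetoff and 3.53, 3.56, 4.84 and 4.98 in ntg libraries, with all Mfn2AA values on top. It rose by 1.25 ± 0.21 (SE, adjusted p = 3.07e-04) and 1.32 ± 0.23 (SE, adjusted p = 4.47e-04). Slc25a25 was 0.98 ± 0.19 (SE, adjusted p = 9.75e-04) against Mfn2wt and 0.52 ± 0.21 (SE, adjusted p = 0.0617) against tetoff, and Slc25a23 -0.34 ± 0.18 (SE, adjusted p = 0.159) and -0.22 ± 0.20 (SE, adjusted p = 0.431).

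**Figure D3:**
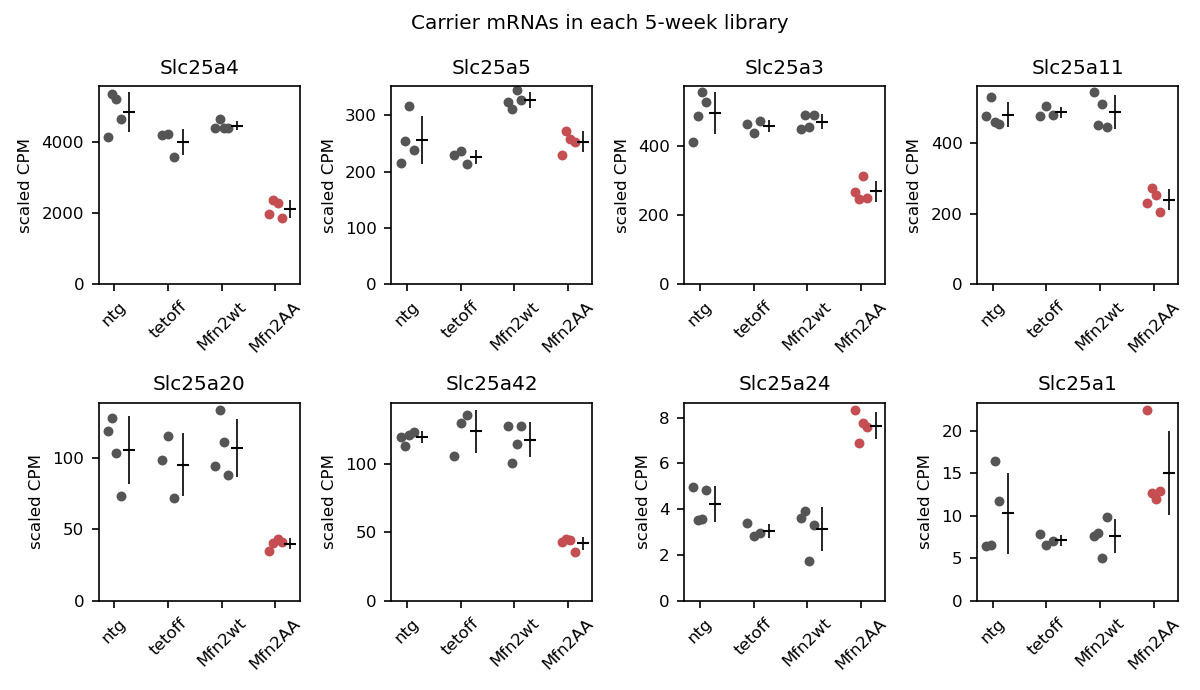
Scaled CPM in each 5-week library (points; Mfn2AA in red) with mean and SD of the group (bars) for 8 carriers, each panel from 0. Slc25a4, Slc25a3, Slc25a11, Slc25a20 and Slc25a42 lie lower in all 4 Mfn2AA libraries than in any other, Slc25a24 higher, and Slc25a5 overlaps.

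Of 5 tested carriers of di- and tricarboxylates and of the malate-aspartate shuttle, 3 fell and 1 rose against Mfn2wt, and 2 fell and 1 rose against tetoff. Slc25a11 exchanges oxoglutarate for malate. Slc25a11 stood at 206, 231, 254 and 273 scaled CPM in the 4 Mfn2AA libraries, with the 4 Mfn2wt libraries at 448, 453, 513 and 546, the 3 tetoff libraries at 478, 481 and 505 and the 4 ntg libraries at 456, 461, 478 and 533. Its Mfn2AA values stood apart, at -1.03 ± 0.11 (SE, adjusted p = 8.75e-06) against Mfn2wt and -1.02 ± 0.12 (SE, adjusted p = 2.15e-05) against tetoff (-0.62 and -0.77 on log2(FPKM + 1)). The aspartate-glutamate carrier Slc25a12 held 95.7, 101, 111 and 119.8 in Mfn2AA, 206, 225, 225 and 228 in Mfn2wt, 169, 179 and 202 in tetoff and 196, 199, 224 and 254 in ntg libraries, again apart, and changed by -1.05 ± 0.11 (SE, adjusted p = 7.25e-06) and -0.78 ± 0.12 (SE, adjusted p = 1.74e-04).

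Slc25a13, its close relative, held 47.5, 50.01, 71.8 and 78.9 scaled CPM in Mfn2AA, 87.8, 110.1, 115 and 119 in Mfn2wt and 65.3, 103 and 106 in tetoff libraries. The Mfn2AA and tetoff libraries overlap. It fell against Mfn2wt, -0.80 ± 0.21 (SE, adjusted p = 0.00646), a call lost on log2(FPKM + 1) (-0.40, adjusted p = 0.263), and was -0.56 ± 0.22 (SE, adjusted p = 0.060) against tetoff. Without the heart 5wk_tetoff_10289-3 the adjusted p against tetoff was 0.0186, and without the heart 5wk_Mfn2AA_10289-7 0.0295. Slc25a1, which exports citrate for lipid synthesis, held 12, 12.7, 13 and 22.5 in Mfn2AA, 5.01, 7.68, 7.97 and 9.82 in Mfn2wt, 6.51, 6.99 and 7.82 in tetoff and 6.5, 6.55, 11.7 and 16.5 in ntg libraries. The ntg libraries overlap those of Mfn2AA. It rose by 0.96 ± 0.30 (SE, adjusted p = 0.0195) and 1.08 ± 0.33 (SE, adjusted p = 0.0181), calls that were lost without the heart 5wk_Mfn2AA_10287-8, the highest library (0.0687 and 0.0527), the first also without the heart 5wk_Mfn2wt_15931-9 (0.0628) and the second without the heart 5wk_tetoff_10289-2 (0.0715) or with ntg as the control (0.148). The dicarboxylate carrier Slc25a10 was 0.36 ± 0.18 (SE, adjusted p = 0.124) and 0.10 ± 0.19 (SE, adjusted p = 0.735).

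Of 6 tested carriers of carnitine and amino acids, 5 fell against Mfn2wt and 4 against tetoff, and 0 rose. Slc25a20 brings acylcarnitines into the matrix for oxidation. Slc25a20 stood at 34.9, 40.8, 41.5 and 43.3 scaled CPM in the 4 Mfn2AA libraries, with the 4 Mfn2wt libraries at 88.2, 94.5, 111 and 134, the 3 tetoff libraries at 71.8, 98.9 and 115 and the 4 ntg libraries at 73.4, 104, 119 and 128. The Mfn2AA libraries all lay below the lowest other library. It fell by 1.42 ± 0.19 (SE, adjusted p = 3.82e-05) on the log2 scale against Mfn2wt and by 1.25 ± 0.20 (adjusted p = 2.03e-04) against tetoff. The glutamate carrier Slc25a22 held 25.6, 27.2, 29.3 and 33.7 in Mfn2AA, 64.7, 75.5, 86.2 and 88 in Mfn2wt, 46.8, 59.8 and 99.3 in tetoff and 60.5, 61.7, 62.1 and 86.4 in ntg libraries, also without overlap, at -1.44 ± 0.20 (SE, adjusted p = 6.51e-05) and -1.24 ± 0.21 (SE, adjusted p = 3.91e-04).

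Slc25a29, a carrier of basic amino acids, was -1.04 ± 0.23 (SE, adjusted p = 0.00195) and -1.17 ± 0.24 (SE, adjusted p = 0.00136), and the glycine carrier Slc25a38 -0.60 ± 0.15 (SE, adjusted p = 0.0054) and -0.66 ± 0.16 (SE, adjusted p = 0.00468). Both calls of Slc25a38 were lost on log2(FPKM + 1). Slc25a44, a carrier of branched-chain amino acids, was called against Mfn2wt alone, -0.31 ± 0.12 (SE, adjusted p = 0.0466), beside -0.12 ± 0.13 (SE, adjusted p = 0.514) against tetoff. On log2(FPKM + 1) its sign turned (0.08), and its call was lost without any 1 of the 4 Mfn2AA hearts or the hearts 5wk_Mfn2wt_15926-4, 5wk_Mfn2wt_15931-9 and 5wk_Mfn2wt_15934-5 (adjusted p from 0.0638 to 0.118). The ornithine carrier Slc25a15 was not called in either comparison.

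Of 11 tested carriers of cofactors, nucleotides and glutathione, 7 fell and 1 rose against Mfn2wt, and 5 fell and 1 rose against tetoff. Slc25a42, which brings coenzyme A into the matrix, had the greatest fall of any member in both comparisons. Slc25a42 stood at 35.4, 42.9, 44.5 and 45.2 scaled CPM in the 4 Mfn2AA libraries, with the 4 Mfn2wt libraries at 101, 115, 128 and 128, the 3 tetoff libraries at 106, 129.8 and 136 and the 4 ntg libraries at 113, 120.1, 121 and 123. The Mfn2AA libraries stood apart. The difference was -1.49 ± 0.12 (SE, adjusted p = 6.64e-07) and -1.56 ± 0.12 (SE, adjusted p = 1.26e-06). Slc25a16, also tied to coenzyme A, was -0.83 ± 0.13 (SE, adjusted p = 2.04e-04) and -0.55 ± 0.14 (SE, adjusted p = 0.00729), and the NAD carrier Slc25a51 -0.40 ± 0.10 (SE, adjusted p = 0.0071) and -0.48 ± 0.11 (SE, adjusted p = 0.00353). On log2(FPKM + 1) Slc25a51 turned to 0.01 against Mfn2wt (adjusted p = 0.958) and was -0.19 against tetoff (adjusted p = 0.479), and the calls of Slc25a16 were lost in both comparisons.

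The S-adenosylmethionine carrier Slc25a26 held 7.74, 9.58, 10.3 and 12.2 scaled CPM in Mfn2AA, 20.4, 21.5, 24 and 24.2 in Mfn2wt, 23.7, 26.6 and 33.1 in tetoff and 20.5, 23.8, 24.6 and 25.7 in ntg libraries, without overlap of the Mfn2AA libraries. It was -1.17 ± 0.15 (SE, adjusted p = 2.78e-05) and -1.48 ± 0.16 (SE, adjusted p = 8.24e-06). The pyrimidine nucleotide carrier Slc25a33 and the glutathione carrier Slc25a39 were called against Mfn2wt alone. Slc25a33 was -1.18 ± 0.19 (SE, adjusted p = 2.00e-04) against Mfn2wt and -0.43 ± 0.20 (SE, adjusted p = 0.122) against tetoff, and Slc25a39 -0.94 ± 0.17 (SE, adjusted p = 4.77e-04) and -0.40 ± 0.18 (SE, adjusted p = 0.096). For Slc25a39 the Mfn2wt libraries (183, 239, 245 and 262) reached above the tetoff libraries (142, 149 and 189), while the Mfn2AA libraries held 93.9, 109, 125 and 154.

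Slc25a17, a carrier of the peroxisome rather than the mitochondrion, rose by 0.56 ± 0.20 (SE, adjusted p = 0.0367) against Mfn2wt and 0.75 ± 0.22 (SE, adjusted p = 0.0136) against tetoff. Its 4 Mfn2AA libraries held 7.3, 7.69, 8.17 and 8.39 scaled CPM, within the ntg range of 4.17 to 8.24 for 3 of the 4. The call against Mfn2wt was lost without the hearts 5wk_Mfn2AA_10287-8, 5wk_Mfn2AA_10289-7 or 5wk_Mfn2AA_10289-8 or the hearts 5wk_Mfn2wt_15926-4, 5wk_Mfn2wt_15931-9 or 5wk_Mfn2wt_15934-5 (adjusted p from 0.0501 to 0.0974). The call against tetoff was lost without the heart 5wk_tetoff_10289-3 (0.0603) and with ntg as the control (0.289). Slc25a32, Slc25a36 and Slc25a40 were not called.

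Neither iron carrier (Slc25a28 and Slc25a37) and none of the 3 relatives of the uncoupling proteins (Slc25a14, Slc25a27 and Slc25a30) was called at 5 weeks. Of the 5 other members tested, 2 fell and 1 rose in each comparison. Slc25a34 held 89.7, 111, 136 and 142 scaled CPM in Mfn2AA, 279.8, 280.4, 312 and 339 in Mfn2wt, 314, 357 and 373 in tetoff and 333, 339.5, 357 and 476 in ntg libraries. The Mfn2AA libraries did not overlap the rest, and the gene was -1.34 ± 0.16 (SE, adjusted p = 1.40e-05) and -1.54 ± 0.17 (SE, adjusted p = 9.76e-06). Slc25a45 rose by 0.59 ± 0.17 (SE, adjusted p = 0.012) and 0.77 ± 0.18 (SE, adjusted p = 0.00416), with Mfn2AA libraries at 7.91, 8.38, 8.71 and 12.4.

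Slc25a46, the outer membrane member, held 7.35, 8.89, 10.3 and 13.3 scaled CPM in Mfn2AA, 9.87, 13.7, 15.6 and 16.5 in Mfn2wt, 15.5, 16.6 and 18.8 in tetoff and 15, 16.6, 16.6 and 18.4 in ntg libraries. The Mfn2AA libraries overlap those of Mfn2wt and lie below those of tetoff and ntg. It was -0.77 ± 0.19 (SE, adjusted p = 0.00636) against tetoff and -0.48 ± 0.18 (SE, adjusted p = 0.0494) against Mfn2wt. The first call was lost on log2(FPKM + 1) (-0.41, adjusted p = 0.066). The second call was lost in 11 of 14 alternatives, among them without any 1 of the hearts 5wk_Mfn2AA_10289-7, 5wk_Mfn2AA_10289-8 and 5wk_Mfn2AA_10289-9 or the hearts 5wk_Mfn2wt_15926-4, 5wk_Mfn2wt_15930-8 and 5wk_Mfn2wt_15934-5 (adjusted p from 0.0726 to 0.156). Slc25a35 and Slc25a47 were not called.

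The difference between genotypes itself changed between P21 and 5 weeks. Batch and age coincide in this contrast, but each genotype difference was taken within a batch. For Mfn2AA against tetoff 23 of 40 members tested moved, 4 up and 19 down, where 32.3% of 14174 genes did (16.5% up, 15.8% down). For Mfn2AA against Mfn2wt 24 moved, 2 up and 22 down, where 34.3% of genes did (17% up, 17.2% down). On log2(FPKM + 1) these were 5 up and 12 down, and 7 up and 13 down, beside 3425 and 1066, and 4371 and 1004, of all genes. There the calls of Slc25a3, Slc25a13 and Slc25a46 against Mfn2wt were lost (-0.28, -0.39 and -0.18). Those of Slc25a16, Slc25a23, Slc25a28, Slc25a44, Slc25a47 and Slc25a51 against Mfn2wt were lost as well. Against tetoff the calls of Slc25a15, Slc25a16, Slc25a28, Slc25a29, Slc25a33, Slc25a39 and Slc25a51 were lost. Both contrasts share the Mfn2AA libraries. Markers moved too: 5 of 6 of fibroblasts and 5 of 5 of proliferating cells went up in both contrasts, 7 and 6 of 8 of macrophages went up, and 4 and 3 of 6 of ventricular cardiomyocytes went down. Their part was not tested.

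The greatest downward changes were those of Slc25a34 (-1.87 ± 0.29, SE, adjusted p = 6.93e-06 against tetoff and -1.70 ± 0.27, SE, adjusted p = 8.66e-06 against Mfn2wt), Slc25a42 (-1.74 ± 0.19, SE, adjusted p = 3.16e-08 and -1.51 ± 0.18, SE, adjusted p = 7.79e-08) and Slc25a26 (-1.55 ± 0.15, SE, adjusted p = 1.57e-09 and -1.46 ± 0.14, SE, adjusted p = 1.51e-09). Slc25a26 went from higher in Mfn2AA than in Mfn2wt hearts at P21 to lower at 5 weeks. Of the shuttle, carnitine and phosphate carriers, Slc25a20 moved by -1.27 ± 0.22 and -1.21 ± 0.21, Slc25a11 by -1.07 ± 0.17 and -1.09 ± 0.16, Slc25a12 by -0.88 ± 0.19 and -0.98 ± 0.18, and Slc25a3 by -0.73 ± 0.16 and -0.66 ± 0.15. Slc25a13 was -0.66 ± 0.26 (SE, adjusted p = 0.050) and -0.75 ± 0.25 (SE, adjusted p = 0.0162), and Slc25a46 -0.96 ± 0.21 (SE, adjusted p = 5.19e-04) and -0.59 ± 0.20 (SE, adjusted p = 0.0192). Slc25a22 moved by -1.42 ± 0.33 (SE, adjusted p = 0.0010) against tetoff and Slc25a33 by -1.31 ± 0.22 (SE, adjusted p = 1.50e-05) against Mfn2wt. Slc25a4 moved by -0.91 ± 0.16 (SE, adjusted p = 2.74e-05) and -1.03 ± 0.15 (SE, adjusted p = 1.23e-06), whereas Slc25a5 was 0.05 ± 0.14 (SE, adjusted p = 0.828) and -0.11 ± 0.13 (SE, adjusted p = 0.529). Upward, Slc25a24 moved by 1.64 ± 0.26 (SE, adjusted p = 9.51e-06) and 1.45 ± 0.24 (SE, adjusted p = 1.78e-05), Slc25a25 by 0.90 ± 0.22 (SE, adjusted p = 0.00153) against Mfn2wt and Slc25a1 by 1.09 ± 0.37 (SE, adjusted p = 0.0231) against tetoff. Slc25a45 (0.58 ± 0.23, SE, adjusted p = 0.0447) and Slc25a17 (0.55 ± 0.21, SE, adjusted p = 0.0454) also moved up against tetoff, calls that were lost in 11 and 14 of 23 alternatives.

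**Figure D4:**
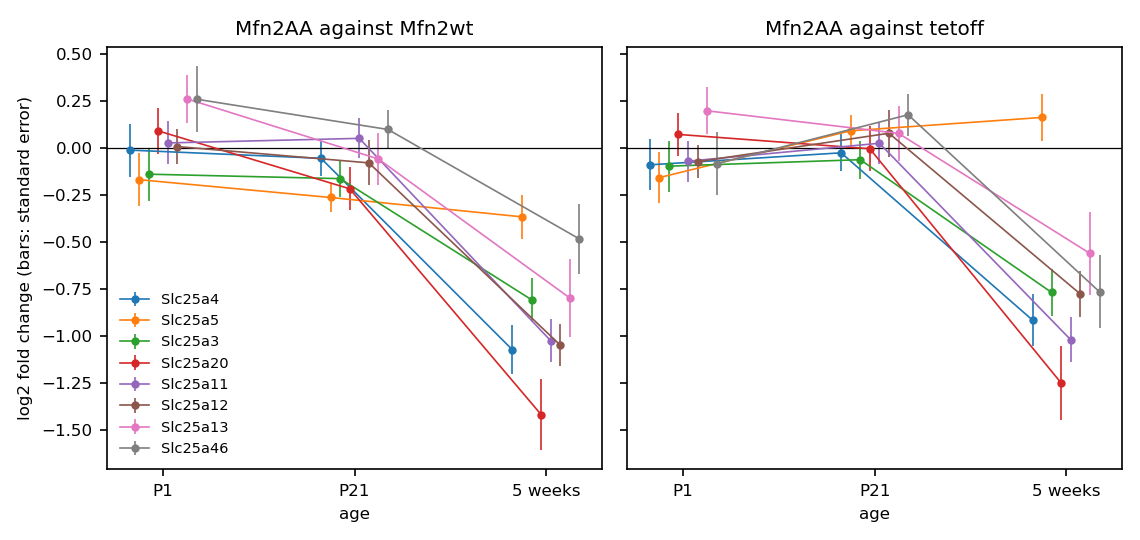
Log2 fold change of 8 carriers in Mfn2AA hearts against Mfn2wt (left) and tetoff hearts (right) at P1, P21 and 5 weeks, with standard error bars. Values at P1 and P21 lie between -0.26 and 0.26. At 5 weeks 7 of the 8 are at -0.48 or lower in both panels, and Slc25a5 is at -0.37 and 0.16.

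The carriers also changed with age in ntg hearts, compared within the P1 library batch. From P1 to P21, 15 of 39 members rose and 6 fell, where 57.6% of 13534 genes were called (29% up, 28.5% down). The members' median change was 0.15 on the log2 scale, beside -0.02 over all genes. On log2(FPKM + 1) the median of all genes moved to -0.19, with 2534 genes up and 5576 down and 13 members up and 11 down. Of the markers, 5 of 5 of proliferating cells fell and 8 of 8 of macrophages rose, while 3 of 6 of ventricular cardiomyocytes, 2 of 6 of atrial cardiomyocytes, 2 of 6 of adipocytes and 4 of 5 of endothelium rose. Of erythroid markers 2 of 3 rose, of fibroblast markers 3 of 6 rose and 2 fell, and of smooth muscle markers 2 of 4 rose and 1 fell. Their part in the changes was not tested. The P21 heart P21_ntg_10547-2 held 8410 scaled CPM of summed atrial markers and the other 2 P21 hearts 1004 and 1155. With the atrial score as a term 14 members rose and 6 fell, beside 3789 and 3724 of all genes.

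The greatest rise was that of Slc25a29, the carrier of basic amino acids. The 6 P1 libraries ran from 1.5 to 3.23 (median 2.44) scaled CPM, the 3 P21 libraries held 15.1, 18.9 and 19.1 and the 4 libraries of 5 weeks 20.1, 21.5, 24.6 and 27.6. No P1 library came near the later ones, and the change to P21 was 2.84 ± 0.16 (SE, adjusted p = 8.78e-11). Slc25a34 ran from 69.3 to 108 (median 75.1) at P1 and held 256, 324 and 397 at P21, a change of 2.02 ± 0.13 (SE, adjusted p = 6.31e-10). Slc25a35, whose exons overlap Rangrf, was 2.21 ± 0.23 (SE, adjusted p = 2.57e-07), and the pyrimidine nucleotide carrier Slc25a33 1.60 ± 0.15 (SE, adjusted p = 4.49e-08). The greatest fall was that of the dicarboxylate carrier Slc25a10, -0.96 ± 0.11 (SE, adjusted p = 5.54e-07), followed by Slc25a23 (-0.72 ± 0.10, SE, adjusted p = 5.56e-06), Slc25a5 (-0.65 ± 0.11, SE, adjusted p = 4.83e-05) and Slc25a27 (-0.58 ± 0.17, SE, adjusted p = 0.00644).

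Both ADP/ATP exchangers changed, in opposite directions. Slc25a4 ran from 3883 to 4285 (median 3995) scaled CPM at P1 and held 5535, 5855 and 6168 at P21, 0.53 ± 0.10 (SE, adjusted p = 3.10e-04). Slc25a5 ran from 512 to 748 (median 609) at P1 and held 387, 395 and 404 at P21. The ages overlap for neither gene. The shuttle carriers rose, Slc25a13 by 1.20 ± 0.11 (SE, adjusted p = 8.42e-08), Slc25a11 by 0.81 ± 0.09 (SE, adjusted p = 4.54e-07) and Slc25a12 by 0.48 ± 0.09 (SE, adjusted p = 1.54e-04). Slc25a3 rose by 0.37 ± 0.11 (SE, adjusted p = 0.00884), a call lost without the heart P21_ntg_10547-2 (adjusted p = 0.0519), on log2(FPKM + 1) and with each age in its own batch. Neither Slc25a20 (-0.00 ± 0.11, SE, adjusted p = 1.0) nor Slc25a46 (0.20 ± 0.16, SE, adjusted p = 0.313) was called.

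From P21 to 5 weeks 7 members rose and 2 fell, where 22.4% of genes were called (11.6% up, 10.8% down). The risers were Slc25a13 (0.66 ± 0.13, SE, adjusted p = 0.00161), Slc25a33 (0.56 ± 0.15, SE, adjusted p = 0.0112), Slc25a38 (0.53 ± 0.14, SE, adjusted p = 0.0111), Slc25a20 (0.45 ± 0.12, SE, adjusted p = 0.012), Slc25a42 (0.44 ± 0.11, SE, adjusted p = 0.0121), Slc25a39 (0.43 ± 0.09, SE, adjusted p = 0.00278) and Slc25a12 (0.39 ± 0.10, SE, adjusted p = 0.00886). Slc25a37, the iron carrier of erythroid cells, changed by -0.45 ± 0.12 (SE, adjusted p = 0.0146), and Slc25a53, near the limit of detection, by -1.82 ± 0.52 (SE, adjusted p = 0.0181). All 3 tested erythroid markers were lower at 5 weeks, as were 4 of 6 atrial, 4 of 6 fibroblast and 5 of 5 proliferating cell markers, whose part was not tested. The count was 3 without the heart P21_ntg_10547-1, 11 without the heart 5wk_ntg_15935-10 of 5 weeks, and 4 with the atrial score as a term. Counts over all genes without those hearts are not given here. The fit with the atrial score called 2222 of all genes, 1172 up and 1050 down. With each age in its own batch 10 members were called, where 4040 of all genes were (2231 up, 1809 down). Of the 9 named here Slc25a39 and Slc25a42 alone were among those 10. Slc25a33 had the other sign there (-0.04), Slc25a13 was 0.21 (adjusted p = 0.263), Slc25a12 0.10 (0.485), Slc25a20 0.10 (0.579), Slc25a38 0.07 (0.682), Slc25a37 -0.12 (0.469) and Slc25a53 -1.19 (0.0703).

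Members that rose after birth were also among those lower in 5-week Mfn2AA hearts. These comparisons share no library. Of the 15 that rose from P1 to P21, 9 (60%) were lower and 1 higher in Mfn2AA than in tetoff hearts, and 11 (73.3%) lower and 1 higher than in Mfn2wt hearts. Among all 3918 genes that rose and were tested in both, 31.3% were lower against tetoff and 33.3% against Mfn2wt. Of the 17 members with no call for age, 6 and 7 were lower, beside 12.1% and 15.1% of 5598 genes. Of the 6 members that fell after birth, 0 and 2 were lower, beside 7.33% and 8.4% of 3656 genes. The 9 were Slc25a3, Slc25a4, Slc25a11, Slc25a12, Slc25a22, Slc25a26, Slc25a29, Slc25a34 and Slc25a38, while Slc25a45 rose with age and was higher in Mfn2AA hearts. Slc25a20 and Slc25a42, among the greatest falls at 5 weeks, were not called from P1 to P21 (-0.14 ± 0.11, SE, adjusted p = 0.253 for Slc25a42).

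**Figure D5:**
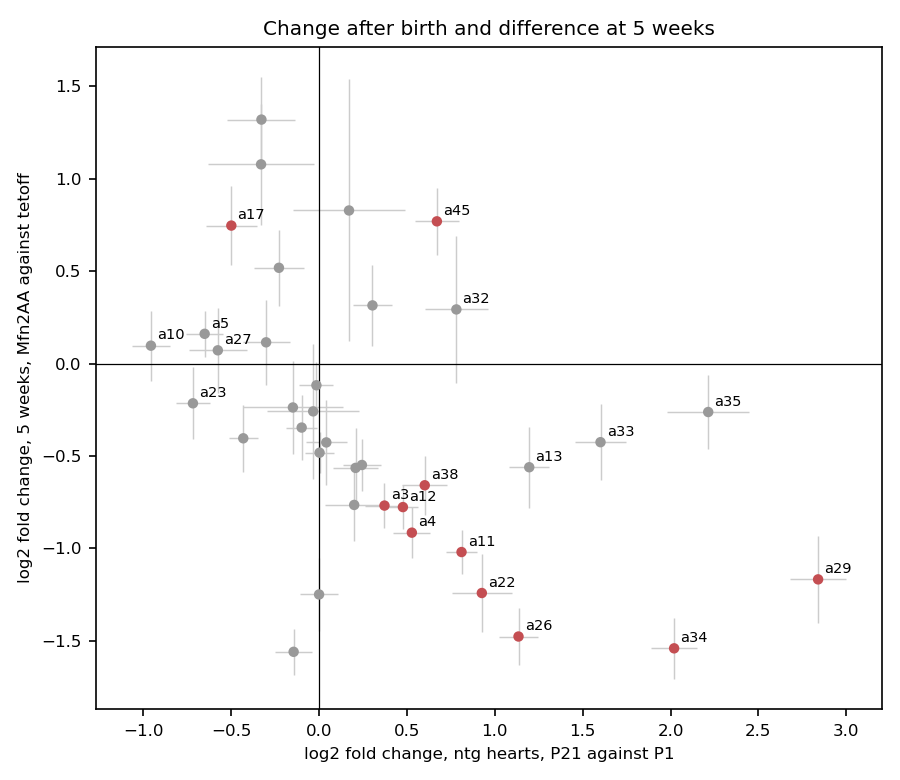
Log2 fold change from P1 to P21 in nontransgenic hearts (horizontal) against that of Mfn2AA from tetoff hearts at 5 weeks (vertical) for carriers tested in both, with standard error bars; red points passed the test in both. Of the red points 9 lie at the lower right, Slc25a45 at the upper right and Slc25a17 at the upper left.

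The same total RNA of 6 ntg hearts, sequenced in 2 batches, gave the size of batch differences. With the heart as a replicate block, 9 of 38 members differed, 4 higher and 5 lower in the P1 batch, where 20.8% of 13184 genes did (9.91% higher, 10.9% lower). Slc25a3 (0.28 ± 0.08, SE, adjusted p = 0.0363), Slc25a20 (0.34 ± 0.10, SE, adjusted p = 0.0444), Slc25a15 (0.35 ± 0.11, SE, adjusted p = 0.0497) and the folate carrier Slc25a32 (0.54 ± 0.17, SE, adjusted p = 0.0452) were higher. Those lower included Slc25a10 (-0.32 ± 0.10, SE, adjusted p = 0.0453), Slc25a22 (-0.32 ± 0.09, SE, adjusted p = 0.0364), Slc25a28 (-0.30 ± 0.09, SE, adjusted p = 0.0365) and Slc25a39 (-0.33 ± 0.08, SE, adjusted p = 0.0262). Without the replicate block 6 members were called, where 2288 of all genes were, and on log2(FPKM + 1) 1, where 425 were. Leaving out a heart gave 0 to 7, with 0 without P21_ntg_10547-2, 5wk_ntg_15927-6 or 5wk_ntg_15928-7. Counts over all genes in those fits are not given here.

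Genes that work with the carriers changed in the same hearts at 5 weeks. Of 12 enzymes of the carnitine and malate-aspartate shuttles, creatine kinase and cyclophilin D, 9 fell and 1 rose in each comparison, with medians of -1.02 and -0.99. Of all genes tested, 18.2% fell and 20.3% rose against Mfn2wt, and 16.1% fell and 18.9% rose against tetoff. Cpt2, which rebuilds acyl-CoA behind Slc25a20, was -1.86 ± 0.15 (SE, adjusted p = 7.03e-07) and -1.64 ± 0.15 (SE, adjusted p = 3.57e-06), Crat -1.73 ± 0.11 (SE, adjusted p = 2.75e-07) and -1.38 ± 0.12 (SE, adjusted p = 1.58e-06), and the muscle creatine kinase Ckm -1.55 ± 0.20 (SE, adjusted p = 2.93e-05) and -1.41 ± 0.21 (SE, adjusted p = 1.21e-04). Ckmt1, the mitochondrial creatine kinase of tissues outside muscle, rose by 1.69 ± 0.45 (SE, adjusted p = 0.00799) and 2.92 ± 0.55 (SE, adjusted p = 7.63e-04).

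Of 22 other transporters of the mitochondrial membranes, 6 fell and 4 rose against Mfn2wt, and 7 fell and 5 rose against tetoff. For this list and the next 2, the shares of all genes called in either direction were 38.5% against Mfn2wt and 35% against tetoff. The pyruvate carrier subunit Mpc2 was -1.14 ± 0.13 (SE, adjusted p = 1.05e-05) and -1.31 ± 0.14 (SE, adjusted p = 6.98e-06), and Tspo, abundant in macrophages and other cells, 2.06 ± 0.23 (SE, adjusted p = 9.99e-06) and 1.92 ± 0.25 (SE, adjusted p = 4.90e-05). Among 5 family members under other symbols, 3 fell and 1 rose against Mfn2wt, and 1 fell and 2 rose against tetoff. Ucp3, the uncoupling protein of striated muscle, was -2.87 ± 0.40 (SE, adjusted p = 5.74e-05) and -2.98 ± 0.41 (SE, adjusted p = 7.22e-05), and Ucp2 1.04 ± 0.47 (SE, adjusted p = 0.0955) and 1.75 ± 0.53 (SE, adjusted p = 0.0179). Of 14 regulators of mitochondrial genes, 8 fell and 0 rose against Mfn2wt, and 6 fell and 3 rose against tetoff. The nuclear receptors Ppara (-1.24 ± 0.14, SE, adjusted p = 1.03e-05 and -1.12 ± 0.15, SE, adjusted p = 4.70e-05), Esrrg (-1.18 ± 0.11, SE, adjusted p = 2.35e-06 and -0.98 ± 0.12, SE, adjusted p = 2.19e-05) and Esrra (-0.96 ± 0.16, SE, adjusted p = 3.31e-04 and -0.88 ± 0.17, SE, adjusted p = 0.00118) fell in both. The coactivator Ppargc1a fell against Mfn2wt, -1.06 ± 0.23 (SE, adjusted p = 0.00183), and its relative Ppargc1b against tetoff, -1.01 ± 0.19 (SE, adjusted p = 9.31e-04).

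From P1 to P21 in ntg hearts, 7 of those 12 enzymes rose and 1 fell, and 11 of 21 other transporters tested rose and 0 fell. Of all genes tested, 29% rose and 28.5% fell. Ckmt2, the mitochondrial creatine kinase of striated muscle, changed by 3.34 ± 0.12 (SE, adjusted p = 5.66e-13), Mpc1 by 2.11 ± 0.17 (SE, adjusted p = 6.16e-09), and Cpt1a, the liver form of the outer carnitine enzyme, by -1.20 ± 0.10 (SE, adjusted p = 9.13e-09). Of the regulators 4 rose, with Ppard at 0.91 ± 0.08 (SE, adjusted p = 1.85e-08) and Ppara at 0.63 ± 0.09 (SE, adjusted p = 6.56e-06), and 3 fell, with Ppargc1b at -0.52 ± 0.13 (SE, adjusted p = 0.00194).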

How the data were processed

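RNA-seq libraries of mouse hearts, 63 in 14 groups by age, genotype and library batch, were compared through tables made by the authors. The deposited count table holds raw read counts per gene, and the deposited FPKM table normalized values. The submitters' processing notes name Bowtie2, TopHat2 2.0.10, HTSeq, Cufflinks 2.1, DESeq and edgeR and the build mm10. Exon positions come from the deposited annotation file (base positions, a unit of another kind), and promoter sequences from RefSeq, GRCm38.p6 (protein sequences, planned for Slc25a4 and Slc25a5, were not used here).

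Counts were fitted with edgeR 4.0.16 (TMM scaling, filterByExpr, quasi-likelihood F test, R 4.3.3), 4 genotype groups per age together, ages within the P1 batch, and same hearts between batches with the heart as a block. A gene was called at a Benjamini-Hochberg adjusted p under 0.05 over all genes tested in the comparison. Standard errors are the fold change over the square root of F. Scaled CPM are edgeR's CPM after TMM scaling. FPKM served for levels between genes and for limma 3.58.1 on log2(FPKM + 1), with a mean of at least 1 FPKM in a group, as an alternative. The other alternatives were RLE scaling, no filter, DESeq2 1.42.0, a second control line, a replicate block by title number, each age in its own batch, and each library left out. Added after the data were seen were Rn45s left out before scaling, the atrial marker score as a term, and the 5 shallowest of the 5-week libraries left out. The scripts were tested on simulated counts.

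Each library carries its own heart number in the labels, except the 6 hearts sequenced in both batches, which are never counted as separate replicates of a group. P-values measure the spread between these hearts, taken as independent. Hearts of a group often share a title number, and whether that ties them together is not given. Counting error grows as depth falls, and depth differed between libraries of a group. The members and gene lists were chosen with earlier results of these data known. Genes were named by a rule: every called member where at most 10 were called, otherwise the 4 greatest rises and falls with a mean of at least 1 FPKM in the higher group, 8 fixed members, and up to 4 called genes per related list. The remaining called members at 5 weeks are named as well. The values of 1 member are not reported here. Raw reads were not used here. Figures were drawn with matplotlib.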

Additional observations from a re-analysis of the deposited data

Results flagged for a closer look

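Over 8 carriers, 88 checks were made, each of 1 carrier in 1 group of 4 to 10 libraries. In 4 of them a library stood far from the rest, and chance gives about 1 in 20 such checks. Checks of different carriers in a group share its libraries. Slc25a13 was at 64.5 scaled CPM in the P1 ntg heart P1_ntg_10582-2, with the others between 42.9 and 50.5. At P21 it was at 80.7 in the ntg heart P21_ntg_10547-1, with the others between 111 and 129. Slc25a4 was at 4632 in the 5-week Mfn2wt heart 5wk_Mfn2wt_15930-8, with the others between 4372 and 4395. Slc25a12 was at 206 in the 5-week Mfn2wt heart 5wk_Mfn2wt_15926-4, with the others between 225 and 228.

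The difference between Mfn2AA and tetoff hearts changed between P21 and 5 weeks by a test of the change itself (edgeR, adjusted p under 0.05) for Slc25a4 (-0.91 on the log2 scale), Slc25a3 (-0.73), Slc25a20 (-1.27), Slc25a11 (-1.07), Slc25a12 (-0.88) and Slc25a46 (-0.96). Against Mfn2wt hearts it changed for Slc25a4 (-1.03), Slc25a3 (-0.66), Slc25a20 (-1.21), Slc25a11 (-1.09), Slc25a12 (-0.98), Slc25a13 (-0.75) and Slc25a46 (-0.59). Both sets share the Mfn2AA libraries.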

How the results depend on the processing

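Over 2590 recomputed values of single carriers, 2334 kept their side of the threshold, 240 lost the call and 11 gained one. The 2334 include sign changes of carriers called in neither fit, such as Slc25a20 from P1 to P21. With a call in either fit, 5 changed sign. Those were Slc25a27 in P1 Mfn2wt hearts with tetoff as the control (0.011), Slc25a44 (0.083), Slc25a5 (0.038) and Slc25a51 (0.014) against Mfn2wt at 5 weeks on log2(FPKM + 1), and Slc25a33 from P21 to 5 weeks with each age in its own batch (-0.043). The Slc25a27 value is of another contrast, Mfn2wt against tetoff. Against ntg hearts Slc25a27 was -0.73 in Mfn2wt and -0.74 in tetoff hearts. On log2(FPKM + 1) the median over all genes against Mfn2wt at 5 weeks was 0.33, above the values of Slc25a44, Slc25a5 and Slc25a51. The cause of the other sign changes was not tested.

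At P1 the count of carriers called for Mfn2AA against tetoff was 1 with ntg as the control. For Mfn2wt against ntg it was 0 without Rn45s and on log2(FPKM + 1), and 0 to 2 with a library left out. It was 2 by DESeq2 (183 of all genes called) and 2 with tetoff as the control (80). For tetoff against ntg DESeq2 called 2, among 432 of all genes. At P21 the count for Mfn2AA against tetoff was 2 with ntg as the control (914 of all genes called). That for Mfn2wt against ntg was 2 with tetoff as the control (821 of all genes) and 0 to 1 with a library left out. That for Mfn2AA against Mfn2wt was 2 to 5 with a library left out, with 2 without the Mfn2AA heart P21_Mfn2AA_10534-4. At 5 weeks it was 14 for Mfn2AA against Mfn2wt without the 5 libraries of lowest depth, which leaves 1 Mfn2wt library. With a library left out the counts were 21 to 24 against Mfn2wt and 18 to 22 against tetoff. From P21 to 5 weeks it was 4 with the atrial score, where 2222 of all genes were called, and 3 to 11 with a library left out. Between batches of the same hearts it was 1 on log2(FPKM + 1) and 0 to 7 with a heart left out. Counts over all genes are not given here for the fits with a library or heart left out. Those ranges therefore cannot be set beside the share of all genes.

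The number before the hyphen in the titles is shared by some groups, and its meaning is not given. All P21 Mfn2AA hearts carry the same number. Within the P1 Mfn2wt hearts and within the 5-week tetoff hearts the number is also the same. No 5-week Mfn2wt heart shares its number with a heart of another group. Genotype and number can therefore not be fully told apart. Deviations of same-numbered hearts from the mean of their own group correlated at -0.47 to 0.41 for Mfn2AA against tetoff at 5 weeks. The correlation was over 0.1 in 5 of 9 pairs. Taking out the group mean removes any effect common to a group, so these values cannot show whether the number ties hearts together. The number served only as an alternative block. For Mfn2AA against tetoff at 5 weeks, the title number as a replicate block gave 19 carriers called, 5 higher and 14 lower. Over all genes that fit called 3725, 2035 higher and 1690 lower. The block gave 0 for Mfn2wt against ntg at P21, where 66 genes were called, and 0 for Mfn2AA against tetoff at P1, where 1 gene was. The only P1 ntg heart with the number of the Mfn2wt hearts was P1_ntg_10546-4. The only P21 tetoff heart with the number of the Mfn2AA hearts was P21_tetoff_10534-3. Those fits rest on that control heart alone, and their counts are left out. With the block, Slc25a27 was -0.43 for Mfn2wt against ntg at P1. The block ended the calls of Slc25a5 for Mfn2wt against ntg at P21 (adjusted p = 0.0715) and of Slc25a51 for Mfn2AA against tetoff at 5 weeks (-0.46, adjusted p = 0.0544). Without the replicate block of hearts 6 carriers were called between batches.

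Depth limits the carriers with few reads: 7 of 47 passed no filter, and the lowest totals at 5 weeks were 7396727 and 7590577 counts, both Mfn2wt.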
